A study of Mus musculus with 2 samples.

Results

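The TNF superfamily ligands made by T cells were followed in RNA-seq of control and *Fak*-deficient Th17 cells. The members are the 10 genes *Tnf*, *Lta*, *Ltb*, *Tnfsf8*, *Tnfsf10*, *Tnfsf11*, *Tnfsf14*, *Fasl*, *Cd40lg* and *Cd70*, chosen by gene symbol, and all 10 were found among the 23282 gene rows of the deposited count tables. Ligands of this family are trimers, mostly anchored in the membrane of the cell that makes them, and some are shed by proteases. They bind receptors of the TNF receptor superfamily, which signal to NF-κB and, where they carry a death domain, to apoptosis. Activated CD4 T cells use them to help B cells, to license antigen-presenting cells, to drive inflammation and to kill or restrain other cells.

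Naïve CD4 T cells were taken from the spleens of mice with a floxed *Fak* gene, the gene of focal adhesion kinase, which the tables list as *Ptk2*. Per the study's methods the cells came from young adult females, the control retrovirus was the empty vector MIEG3, and transduced cells were sorted for GFP. One library (n = 1) came from cells given the control retrovirus and 1 library (n = 1) from cells given a retrovirus that carries Cre recombinase (RV-Cre), and both were cultured for 3 days in the same Th17 mix. That mix held anti-CD3ε at 10 μg/ml and anti-CD28 at 5 μg/ml, IL-6 at 50 ng/ml, TGFβ1 at 1 ng/ml, IL-1β at 2 ng/ml, antibodies that neutralise IFNγ and IL-4, and recombinant TNF-alpha at 1 ng/ml, so that both cultures received TNF protein from outside. A label gives the control genotype as WT, whereas the sample title names *Fak* fl/fl cells, and the title was followed. Cells with Cre and an intact *Fak* gene were not analysed here, so the effect of Cre and that of *Fak* loss cannot be told apart. The sources used here do not give the strain of the floxed mice or whether cells of several mice were pooled.

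The differences below rest on 1 library per condition and could not be set against a spread between replicates, so p-values are not given. In such bulk samples fewer cells expressing a gene and less of its RNA per cell cannot be told apart. Each library yielded 1 count per gene. Counts were scaled for depth by the TMM method, giving normalized counts, and the log2 ratio is that of RV-Cre over control on the log2(normalized count + 1) scale, which understates changes of low counts. A ratio without "log2" is that of the normalized counts themselves, and its 95% interval is an exact Clopper-Pearson interval on the split of the reads, which covers counting error only and compares these libraries, not the conditions. A gene was called lower or higher at a change of at least 2-fold, if it reached a log2 value of 4, or 15 normalized reads, in at least 1 library.

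In all, 13799264 reads were counted for the control and 12305010 for the RV-Cre library, of which the ribosomal RNA gene *Rn45s* took 8.50% and 14.6%. For *Ptk2*, 110 control reads and 31 RV-Cre reads were counted, at a ratio of 0.318. Reads of this 3′ kit come from the ends of transcripts, and the tables do not place them relative to the deleted part of the gene, so this count is no direct measure of the deletion. All 8 T cell markers listed (*Cd3d*, *Cd3e*, *Cd3g*, *Cd4*, *Cd2*, *Cd5*, *Cd28* and *Lck*) had reads in both libraries, with summed levels of 1742 CPM (counts scaled to a common library total) in the control and 2394 CPM in the RV-Cre library. Some of the ligands are also made by other immune cells. The 8 B cell markers summed to 6.81 and 19.0 CPM, with 4 of them called higher, 0 called lower and *Pax5* at 0 reads in both libraries. The 10 myeloid and dendritic cell markers summed to 26.0 and 38.6 CPM, with 1 called higher, 2 called lower and *Clec9a* at 0 in both. The 8 NK and CD8 T cell markers summed to 72.6 and 83.1 CPM, with 2 called in each direction and none at 0 in both. All 4 sums were higher in the RV-Cre library, and their part in the results was not tested.

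Among the ligands the large difference lay in lymphotoxin-α and TNF. *Lta* was lower in the RV-Cre library by a factor of 8.76, *Tnf* by a factor of 2.31, and the third gene of the same cluster, *Ltb*, was not lower. Of the 10 members, 9 passed the expression minimum, and *Fasl* did not. Of these 9, 2 were called lower, where the share over all 12112 genes past the minimum was 12.3%, and 0 were called higher, where the share over all genes was 14.2%. The median log2 ratio of the 9 members was -0.19, beside -0.01 over all genes past the minimum. The ligands did not move together, with log2 ratios that ran from -3.13 to 0.91.

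**Figure D1:**
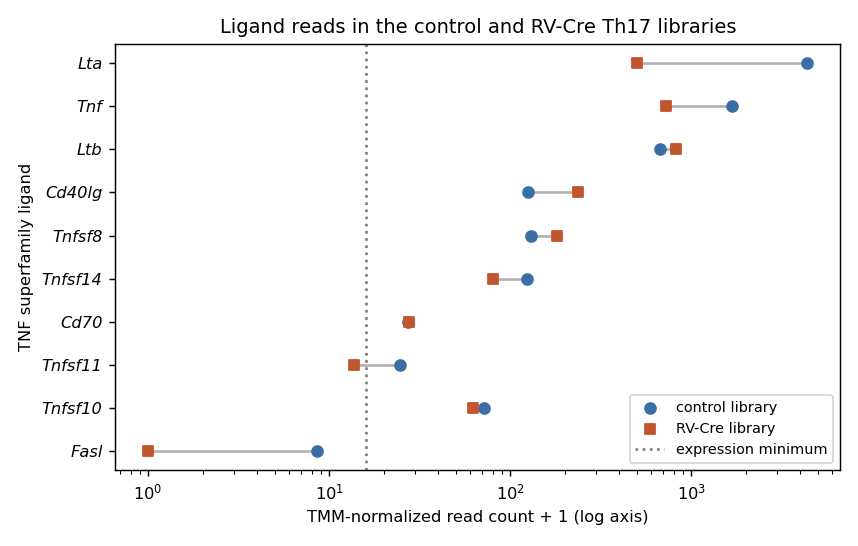
Normalized read count plus 1 on a log axis for each of the 10 ligand genes, as circles for the control library and squares for the RV-Cre library (1 library each, no error bars), with the expression minimum as a dotted line. *Lta* has the longest line among genes past the minimum, from 4393 normalized control reads to 501.4 normalized RV-Cre reads, while *Cd70* has its points on top of each other.

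*Lta*, *Tnf* and *Ltb* are neighbours in the major histocompatibility complex. In the mm10 build that the submitters' processing notes name, which is GRCm38, *Ltb* lies on chr17:35194439-35196320 (plus strand), *Tnf* on chr17:35199381-35202007 and *Lta* on chr17:35203165-35205351 (both minus strand), so that the 3 genes take up 10913 bases. A gap of 1157 bases separates *Tnf* from *Lta*, and one of 3060 bases separates *Ltb* from *Tnf*. No gene body overlaps another of the 3, although the annotated microRNA genes *Mir6974* and *Mir6973a* lie within *Lta* and *Ltb* on the same strand. The RefSeq tables hold promoters for 8 of the 10 members, all but *Cd40lg* and *Cd70*. The 250 bases before the start of each gene of the cluster are shown because these neighbours differed in direction, from RefSeq on GRCm38.p6, 5′ to 3′ on the strand of the gene, with capitals for a match to the NF-κB consensus (the κB site, searched on both strands). The RefSeq start of *Ltb* lies downstream of the GENCODE start, so its window reaches into the gene position given above. The windows cover chr17:35205352-35205601 (*Lta*, minus strand), chr17:35202008-35202257 (*Tnf*, minus strand) and chr17:35194257-35194506 (*Ltb*, plus strand).
Lta: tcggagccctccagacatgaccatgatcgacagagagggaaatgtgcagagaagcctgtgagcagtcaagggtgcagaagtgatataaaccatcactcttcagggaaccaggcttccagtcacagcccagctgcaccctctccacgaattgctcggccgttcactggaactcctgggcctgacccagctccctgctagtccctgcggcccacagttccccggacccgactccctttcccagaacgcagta
Tnf: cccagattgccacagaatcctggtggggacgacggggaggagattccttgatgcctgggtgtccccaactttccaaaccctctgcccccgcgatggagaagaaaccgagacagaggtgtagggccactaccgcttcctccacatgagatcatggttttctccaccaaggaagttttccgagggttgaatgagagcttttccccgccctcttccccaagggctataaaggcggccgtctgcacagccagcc
Ltb: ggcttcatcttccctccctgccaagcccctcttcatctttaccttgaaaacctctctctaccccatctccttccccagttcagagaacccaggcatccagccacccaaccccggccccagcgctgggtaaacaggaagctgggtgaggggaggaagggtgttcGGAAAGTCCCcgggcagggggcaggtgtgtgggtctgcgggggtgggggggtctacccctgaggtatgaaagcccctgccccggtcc

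*Ltb* had 1 match to the κB consensus, GGAAAGTCCC, with its first base 87 bases before the start. Matches occur in 8.46% of the 32851 RefSeq promoters of 300 bases, and the promoters of the other 7 members held none. In the same windows, which reach 50 bases past the start and so beyond the stretch printed, the letters GGAAA, the core of NFAT sites, were found 3 times in that of *Lta*, 3 times in that of *Tnf* and 1 time in that of *Ltb*, and 61.3% of all promoters hold them on either strand. The GGAAA of *Ltb* is part of its κB match. The AP-1 letters TGANTCA, likewise searched on both strands, were found in *Tnfsf14* alone among the 8 windows, and in 7.81% of all promoters. These matches are descriptions of letters and not of bound factors.

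*Lta* encodes lymphotoxin-α, which is secreted as a trimer that binds the TNF receptors or joins lymphotoxin-β at the cell surface. It had 4667 control reads and 472 RV-Cre reads, or 338 and 38.4 CPM. The ratio was 0.114 with a 95% interval from 0.104 to 0.125, which lies wholly below the 2-fold line, and the log2 ratio was -3.13. Ratios scatter more at few reads, so *Lta* was set beside abundant genes, chosen with a lower limit only. Among the 2473 genes whose mean log2 value reached 10, 6.07% were called lower, and *Lta* had the lowest log2 ratio of these. Among all 12112 genes past the minimum it stood 118th from the lowest.

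*Tnf*, the founding ligand of the family, is made as a membrane protein and shed by the protease ADAM17. It had 1787 control reads and 686 RV-Cre reads, or 129.5 and 55.7 CPM. The ratio was 0.433 with an interval from 0.396 to 0.473, and the log2 ratio of -1.21 was the 83rd lowest of the same 2473 genes. *Tnf* was therefore lower by more than 2-fold beyond counting error, and less so than *Lta*. With scaling to *Gapdh* in place of TMM its log2 ratio was -0.79, short of 2-fold, while *Lta* stood at -2.71.

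*Ltb* encodes lymphotoxin-β, the membrane partner that holds lymphotoxin-α at the surface and directs it to the lymphotoxin-β receptor. It had 712 reads in the control and 774 in the RV-Cre library, or 51.6 and 62.9 CPM. The ratio was 1.23 with an interval from 1.11 to 1.36, a difference beyond counting error that lay well inside the 2-fold line.

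**Figure D2:**
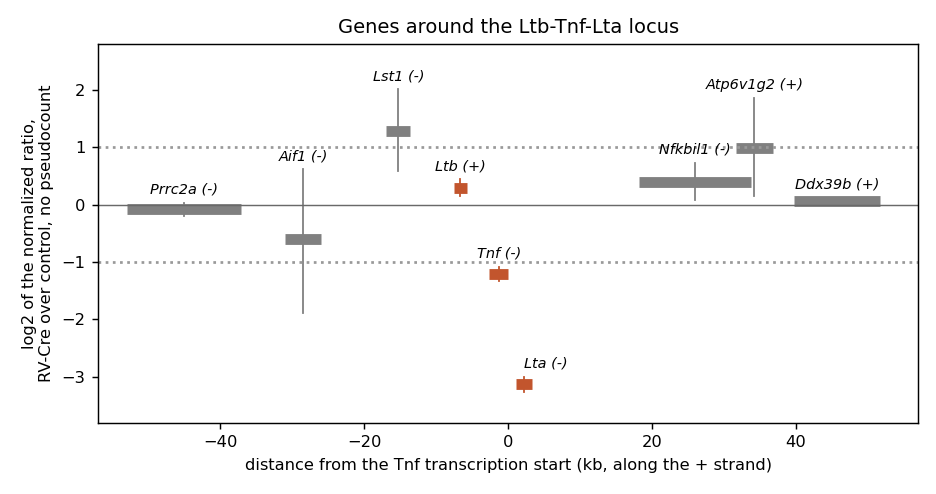
Log2 of the normalized ratio (RV-Cre over control, no pseudocount) of the 9 protein-coding genes of the count tables within 50 kb of the *Tnf* start, against distance in kb; horizontal bars span each gene, vertical lines are 95% counting intervals, signs give the strand and dotted lines mark 2-fold. *Lta* and *Tnf* are the genes drawn below the lower dotted line, and *Ltb* lies just above 0.

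Of the 9 genes of this stretch, *Lta* and *Tnf* were those called lower. The 6 other protein-coding genes within 50 kb of the *Tnf* start were looked up after the values of the cluster had been seen. Of these, 0 were called lower and 1 was called higher, beside 12.3% and 14.2% of all genes. Their log2 ratios ran from -0.55 to 1.25. *Nfkbil1*, the nearest gene beyond *Lta*, had 145 and 170 reads with a ratio of 1.32, and overlaps *Atp6v1g2* on the other strand. *Lst1*, the nearest beyond *Ltb*, had 26 and 56 reads with a ratio of 2.43. *Ddx39b*, an abundant RNA helicase gene at the edge of the window, had 6631 and 6167 reads with a ratio of 1.05.

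Comparisons between genes of the same library need no scaling. *Lta* reads per *Ltb* read were 6.55 for the control and 0.610 for RV-Cre, a 10.7-fold difference (the RV-Cre value over the control value was 0.0930, 95% interval 0.0808 to 0.107). *Lta* reads per *Tnf* read were 2.61 and 0.688, so that *Lta* was the lower of the pair relative to its neighbour (0.263, interval 0.231 to 0.300). *Tnf* reads per *Ltb* read were 2.51 and 0.886 (0.353, interval 0.308 to 0.405). The 3 neighbours thus differed from each other in their ratio between these libraries, each pair beyond counting error.

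*Lta* held most of the ligand reads of the control library, and the make-up of the ligand reads differed between the libraries. Reads of 1 gene are here compared between libraries, since counts of different genes are not corrected for how well each is captured. Together the 10 members had 7702 control reads and 2492 RV-Cre reads, which after scaling is a ratio of 0.365. *Lta* took 60.6% of the control reads (exact 95% interval 59.5 to 61.7) and 18.9% of the RV-Cre reads (17.4 to 20.5). *Ltb* took 9.24% (8.61 to 9.91) and 31.1% (29.2 to 32.9), and *Cd40lg* 1.71% (1.44 to 2.03) and 8.87% (7.78 to 10.1). The share of *Tnf* was closer, at 23.2% (22.3 to 24.2) and 27.5% (25.8 to 29.3), while its own ratio was 0.433. Shares add up to a fixed total, so the lower share of *Lta* leaves larger shares for the others. Without *Lta*, the other 9 members had 3035 and 2020 reads, a ratio of 0.751. Without *Lta* and *Tnf*, the other 8 summed to 1248 and 1334 reads, at a ratio of 1.21 (95% interval 1.12 to 1.30), so that the lower sum rested on these 2 genes.

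**Figure D3:**
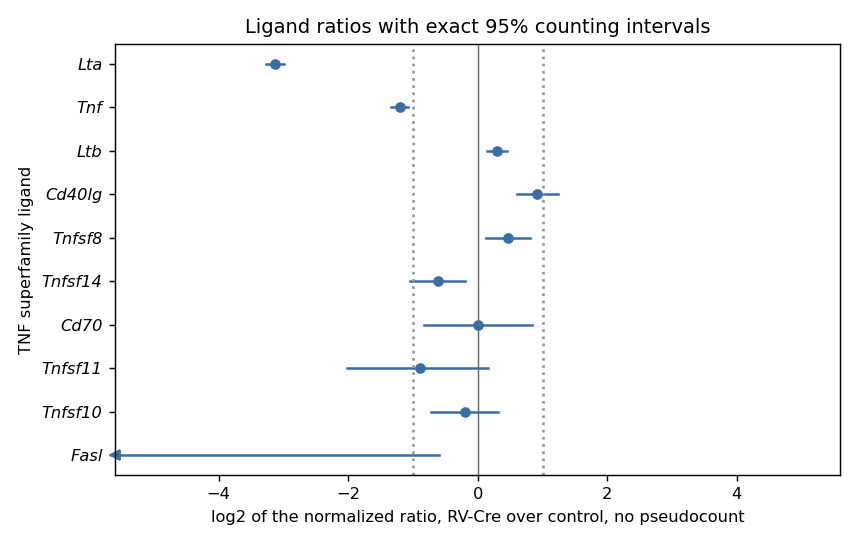
Log2 of the normalized ratio (RV-Cre over control, no pseudocount) for each ligand with its exact 95% counting interval, dotted lines at 2-fold; an arrow marks an interval that runs on because the RV-Cre count is 0. The intervals of *Lta* and *Tnf* lie wholly to the left of the 2-fold line and those of *Ltb*, *Tnfsf8* and *Cd40lg* wholly to the right of 0.

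The ligands that co-stimulate B cells, antigen-presenting cells or other T cells were nearer to the control, in both directions. *Cd40lg* encodes CD40 ligand, by which helper T cells drive B cell germinal centre responses and activate dendritic cells. It had 132 reads in the control and 221 in the RV-Cre library, or 9.57 and 18.0 CPM. The ratio was 1.89 with an interval from 1.52 to 2.36, so *Cd40lg* was higher beyond counting error and its interval spanned the 2-fold line. Its log2 ratio of 0.91, the highest of the 9 members, passed 1 with library totals computed without the ribosomal RNA gene *Rn45s* and with scaling to *Gapdh*. *Cd40lg* lies on chrX:57212143-57224042 (plus strand).

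*Tnfsf8*, on chr4:63831308-63861347 (minus strand), encodes CD30 ligand. Its 138 control reads and 169 RV-Cre reads gave a ratio of 1.38 with an interval from 1.10 to 1.74. *Tnfsf14*, which encodes LIGHT, a ligand of HVEM and of the lymphotoxin-β receptor, had 130 and 75 reads, a ratio of 0.651 with an interval from 0.483 to 0.872. Both differences were beyond counting error and neither reached 2-fold, the first being higher and the second lower in the RV-Cre library. In the range of mean log2 values from 6 to 8, where *Cd40lg*, *Tnfsf8*, *Tnfsf14* and *Tnfsf10* lie, 14.5% of 2858 genes were called lower and 9.48% were called higher.

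*Cd70*, the ligand of CD27, had 28 reads in the control and 25 in the RV-Cre library. Its ratio of 1.01 had an interval from 0.563 to 1.79, so that a difference inside this interval was not detectable at this depth. *Cd70* (chr17:57145997-57149777) and *Tnfsf14* (chr17:57189492-57194177) lie 39714 bases apart on the minus strand of the chromosome that also holds the *Lta* cluster.

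*Tnfsf11*, on chr14:78277445-78308043 (minus strand), encodes RANKL, the ligand by which T cells and stromal cells drive osteoclast formation. It had 25 reads in the control and 12 in the RV-Cre library, and its ratio of 0.542 had an interval from 0.248 to 1.12 that included 1. The genes of the death receptor ligands TRAIL and Fas ligand had few reads. *Tnfsf10*, on chr3:27317028-27342427 (plus strand), encodes TRAIL and had 75 and 58 reads, a ratio of 0.873 with an interval from 0.609 to 1.25. *Fasl*, on chr1:161780689-161788495 (minus strand), encodes Fas ligand and had 8 control reads and 0 RV-Cre reads. A count of 0 allows up to 3 reads, or 0.244 CPM in the RV-Cre library, so *Fasl* was at least 2.36-fold lower with the control count taken as exact, while the upper bound of its 95% interval was a ratio of 0.661. A ratio of 1 lay outside the 95% interval in 6 of the 9 members past the minimum and in 74.7% of all genes past it (66.9% with a 99% interval), so a difference beyond counting error was common among all genes and is no result about the ligands.

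**Figure D4:**
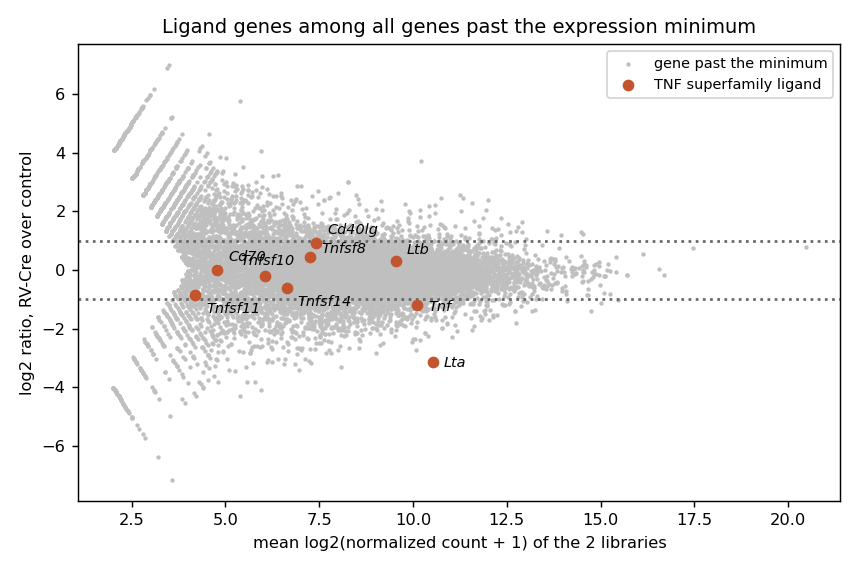
Log2 ratio (RV-Cre over control) against the mean log2(normalized count + 1) of both libraries for the 12112 genes past the minimum in grey and the 9 ligands past it in colour, with dotted lines at 2-fold. *Lta* lies at the lower edge of the cloud at its abundance, and the other ligands lie inside the cloud.

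The 3′ ends of the members were compared as a feature that the choice of genes did not use, taken up after their values were known. Messages of many cytokines carry AU-rich elements in the 3′ UTR, copies of ATTTA in the DNA letters, which proteins such as tristetraprolin (*Zfp36*) bind to hasten decay. In 1 GENCODE M21 transcript per gene on GRCm38, *Tnf* held 8 copies of ATTTA in a 3′ UTR of 764 bases and *Lta* 3 copies in 572 bases, or 10.5 and 5.24 per kb, where the median of 11008 genes past the minimum was 1.29 per kb. *Ltb* held 0 copies in 156 bases. The longer element TTATTTATT, searched on the transcript strand with overlaps counted, was present 5 times in *Tnf*, 1 time in *Lta* and in none of the other 8 members, and in 7.70% of the 11008 genes. A stretch of 30 bases is shown for these 2 genes, with the element in capitals, which holds 4 of the copies in *Tnf* and the 1 in *Lta*. They are bases 442 to 471 of the *Tnf* 3′ UTR and 312 to 341 of that of *Lta*, both within the gene positions on chromosome 17 given above.
Tnf: ttaTTATTTATTTATTATTTATTTATTtgc
Lta: gaaaagttaagTTATTTATTtatagagaat

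The 2 members with the element were those called lower, and over all genes the shares with and without it were close. A part of the element in the values of these members was not tested. Of the 848 genes past the minimum that carry it, 13.2% were called lower and the median log2 ratio was -0.01, while of the 10160 genes without it 11.9% were called lower and the median was -0.02. *Cd70* held 1 ATTTA in 78 bases, so that its density of 12.8 per kb rests on 1 copy. The *Cd70* ratio of 1.01 came from 28 and 25 reads, with an interval from 0.563 to 1.79. *Tnfsf11* held 6 copies in 1131 bases, 5.31 per kb.

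Genes that act on such messages differed in both directions. Of 12 mRNA stability genes, all past the minimum, 1 was called lower and 2 higher, beside 12.3% and 14.2% of all genes. *Zfp36*, which encodes tristetraprolin, had 401 and 820 reads (log2 ratio 1.20), and *Zc3h12d*, a relative of the ribonuclease regnase-1, had 1480 and 2820 reads (log2 ratio 1.10). *Zfp36l2*, a tristetraprolin relative, had 1260 and 505 reads (log2 ratio -1.14), and *Elavl1*, which encodes the stabilising protein HuR, had 2891 and 1616 reads (log2 ratio -0.66). The median of the list was -0.04. *Zfp36* and *Zfp36l2* overlap antisense genes, *Elavl1* overlaps *Ccl25* on the other strand and *Zc3h12d* overlaps small RNA genes. No source states whether strand was used in counting, so reads of such pairs cannot be told apart.

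Of the 9 genes for ligand processing, 8 passed the minimum and 0 were called in either direction, beside 12.3% lower and 14.2% higher of all genes. Their median log2 ratio was -0.26. *Adam17*, the TNF sheddase, had 1103 and 921 reads with a ratio of 0.942 (95% interval 0.862 to 1.03). Its partner *Rhbdf2*, which encodes iRhom2, had 66 and 30 reads (log2 ratio -0.94), and *Furin*, a proprotein convertase, had 10201 and 5252 reads (log2 ratio -0.78). *Frmd8*, which encodes a protein that binds iRhoms, had 909 and 1463 reads (log2 ratio 0.86), and *Sppl2b*, an intramembrane protease, had 220 and 209 reads (log2 ratio 0.10). *Adam17*, *Furin* and *Frmd8* overlap genes on the other strand.

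The 13 receptors of the members differed in both directions. Of the 10 past the minimum, 1 was called lower and 2 higher, beside 12.3% and 14.2% of all genes. Their median log2 ratio was 0.20. The ratios of both TNF receptor genes lay within 2-fold. *Tnfrsf1a*, which encodes the death domain receptor TNFR1, had 243 and 204 reads with a ratio of 0.947 (95% interval 0.783 to 1.15). *Tnfrsf1b*, which encodes TNFR2, had 1300 and 990 reads with a ratio of 0.859 (0.790 to 0.934). *Ltbr*, the lymphotoxin-β receptor, had 28 and 21 reads with a ratio of 0.846 (0.457 to 1.54), and *Tnfrsf14*, which encodes HVEM, a receptor of LIGHT that also binds lymphotoxin-α, had 1 and 7 reads, below the minimum, with a ratio of 7.90 (1.01 to 356).

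*Cd27*, the receptor of *Cd70*, had 583 control reads and 1560 RV-Cre reads, or a ratio of 3.02 (2.74 to 3.33), while its ligand gene stood at 1.01. *Cd27* overlaps *Vamp1* on the genome. *Tnfrsf10b*, the mouse TRAIL receptor with a death domain, had 454 and 89 reads, or a ratio of 0.221 (0.174 to 0.278), while *Tnfsf10* stood at 0.873. *Tnfrsf11a*, which encodes RANK, had 0 and 26 reads and was at least 9.78-fold higher with the RV-Cre count taken as exact, while its 95% interval, which holds the counting error of both libraries, began at a ratio of 7.40, and *Tnfsf11* stood at 0.542. RANK is also a receptor of myeloid cells. The summed markers of these cells were 26.0 and 38.6 CPM. *Fcer1g* alone had 177 of their 359 control reads and 242 of their 475 RV-Cre reads. Of these markers 1 was called higher, *Csf1r* (16 and 110 reads), and 2 lower, *Lyz2* (22 and 7) and *Itgax* (27 and 1). A part of myeloid cells in the *Tnfrsf11a* value was not tested. At that bound *Tnfrsf11a* was still the highest of the list, so the median of 0.20 could not change. These are the 3 receptors called.

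*Cd40* had 84 and 123 reads with a ratio of 1.65 (1.24 to 2.21) beside 1.89 for its ligand gene *Cd40lg*. *Fas* had 164 and 190 reads with a ratio of 1.31 (1.06 to 1.62). The TRAIL decoy receptors *Tnfrsf22* and *Tnfrsf23* had 64 and 64 and 94 and 98 reads, with ratios of 1.13 and 1.18 whose intervals included 1. *Tnfrsf22* and *Tnfrsf23* overlap an antisense gene, and *Fas* a small RNA gene. *Tnfrsf8*, which encodes CD30, had 8 and 4 reads, and *Tnfrsf11b*, which encodes the soluble RANKL decoy osteoprotegerin, had 0 in both. *Cd40* is mainly a gene of B cells and other antigen-presenting cells, and the summed B cell markers given above were also higher in the RV-Cre library. Their part in the *Cd40* value was not tested.

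**Figure D5:**
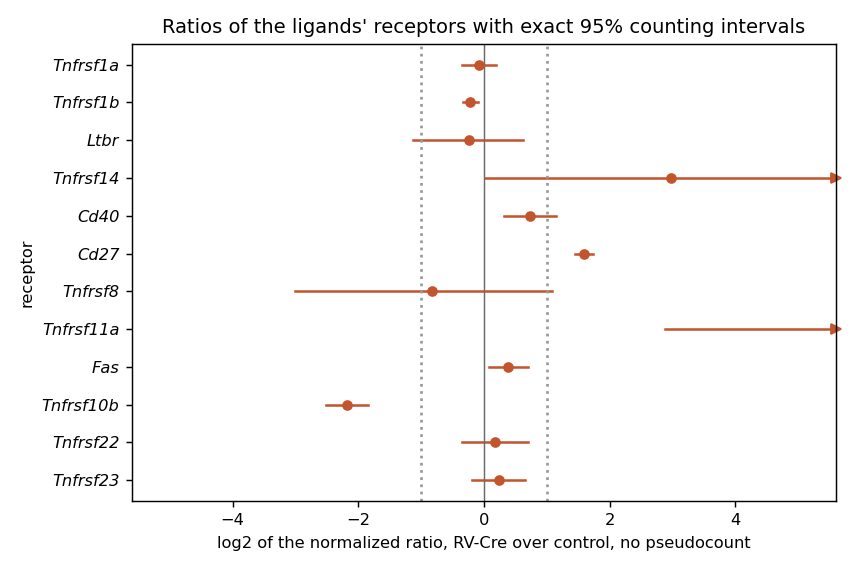
Log2 of the normalized ratio (RV-Cre over control, no pseudocount) of 12 receptors of the ligands with exact 95% counting intervals, dotted lines at 2-fold; *Tnfrsf11b*, with 0 reads in both libraries, is left out, and arrows mark intervals that run past the axis. *Tnfrsf1a* and *Tnfrsf1b* lie near 0, *Tnfrsf10b* to the left of the 2-fold line, and *Cd27* and *Tnfrsf11a* to the right.

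The other ligands of the superfamily were barely counted. Of 8 genes, only *Tnfsf15*, which encodes TL1A, passed the minimum, with 10 and 42 reads and a ratio of 4.74 (95% interval 2.34 to 10.6). *Tnfsf13b*, which encodes BAFF, had 0 and 6 reads. *Tnfsf4* (OX40 ligand), *Tnfsf9* (4-1BB ligand) and *Tnfsf18* (GITR ligand) had at most 1 read in each library, *Tnfsf12* (TWEAK) had 2 and 0, and *Tnfsf13* (APRIL) and *Eda* (ectodysplasin) had 0 in both. *Tnfsf9*, *Tnfsf12*, *Tnfsf13*, *Tnfsf13b* and *Eda* overlap other annotated genes. TL1A and BAFF are known mainly as products of myeloid cells. The myeloid markers are given above, and their part in these values was not tested.

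Downstream of the receptors, 26 adaptors, kinases, ubiquitin enzymes and caspase regulators passed the minimum, with 2 called lower, 1 called higher and a median log2 ratio of 0.04. Over all genes the shares called lower and higher were 12.3% and 14.2%. The 2 lower genes were *Tnfaip3*, which encodes the NF-κB inhibitor A20, with 363 and 96 reads (log2 ratio -1.73), and *Birc3*, which encodes the ubiquitin ligase cIAP2, with 957 and 310 reads (log2 ratio -1.45). Both are known as targets of NF-κB that TNF induces, and a part of NF-κB or TNF in their values was not tested. Of the 26 genes, 23 lay within 2-fold. The higher gene was *Map3k14*, which encodes the NF-κB-inducing kinase NIK of the non-canonical branch, with 342 and 692 reads (log2 ratio 1.19). *Rnf31*, the catalytic subunit of the linear ubiquitin ligase, had 235 and 382 reads (log2 ratio 0.87) and overlaps *Irf9*, and *Map3k14* overlaps a processed transcript. The adaptors *Tradd* (363 and 403 reads, ratio 1.25) and *Fadd* (293 and 236 reads, ratio 0.909, with an antisense gene) lay within 2-fold.

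Of 23 transcription factors known to act on ligand genes of T cells, 22 passed the minimum, with 4 called lower, 0 called higher and a median log2 ratio of -0.24. Among all genes past the minimum, 12.3% were called lower and 14.2% higher. *Myc*, a growth regulator, had 1678 and 315 reads (log2 ratio -2.24), and *Fosl1*, an AP-1 subunit, had 172 and 41 reads (log2 ratio -1.87). The remaining 2, named after their values had been seen, were *Tbx21*, which encodes the Th1 factor T-bet, with 1569 and 399 reads (log2 ratio -1.80), and *Relb*, an NF-κB subunit, with 1624 and 698 reads (log2 ratio -1.04). *Egr3*, which acts on the *Fasl* promoter, had 372 and 457 reads (log2 ratio 0.47), and *Ets1* had 4088 and 4959 reads (log2 ratio 0.45). *Fosl1*, *Ets1*, *Nfatc1*, *Nfatc3* and *Nfkb2* overlap genes on the other strand, and *Nfkb1* overlaps another annotated gene. The canonical subunit gene *Rela* had 1437 and 1486 reads with a ratio of 1.17 (95% interval 1.08 to 1.26). Of the other NF-κB subunit genes, *Nfkb1* had 2240 and 1087 reads (ratio 0.548), *Rel* 232 and 163 (0.793) and *Nfkb2* 3637 and 3379 (1.05). The NFAT gene *Nfatc1* had 1084 and 1261 reads with a ratio of 1.31 (1.21 to 1.43). Its relatives *Nfatc2* (621 and 447 reads, ratio 0.812) and *Nfatc3* (3671 and 2286 reads, ratio 0.703) were lower. A part of these genes in the values of *Lta* and *Tnf* was not tested.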

How the data were processed

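QuantSeq 3′ libraries had been prepared with 500 ng RNA each. The deposited values are raw read counts per gene symbol that the authors had not normalized. The submitters' processing notes name the genome build mm10, bcl2fastq 2.20.0.422, Bowtie2 and bedtools; annotation, filters and strand setting are not given in the sources used here. Counts were scaled with TMM factors of edgeR 4.0.16 (R 4.3.3; size factors 1.06 and 0.941) and compared in Python 3.11.15 with scipy 1.17.1. Reads carry no molecular identifiers, so the intervals, and the limit of 3 reads where none was counted, hold counting error alone. The procedure was also run on simulated counts with counting error alone, so that run says nothing of a spread between replicates. DESeq2 1.42.0 size factors were an alternative. Rows sharing a symbol (79) were left out of gene lists. Positions and 3′ UTRs came from GENCODE M21 and promoters from RefSeq. For each gene the best APPRIS transcript, then the longest 3′ UTR, was taken. Members, lists and settings were chosen with earlier results of these data known. The text names all members, other ligands and receptors, and the 2 most extreme genes in each direction of the other lists. Further genes were named after their values were seen, among them *Adam17*, *Tradd*, *Fadd*, the NF-κB subunit and NFAT genes and the neighbours of *Tnf*.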

Additional observations from a re-analysis of the deposited data

How the results depend on the processing

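No paired analysis was possible because neither condition had more than 1 library, and for the same reason no library could be left out. The count of members at least 2-fold lower was 2 of 9 (*Tnf* and *Lta*), where the share over all genes past the minimum was 12.3%. It became 1 with scaling to *Gapdh* (*Lta*, all genes 6.40%) and 4 with a fold threshold of 1.5 (adding *Tnfsf11* and *Tnfsf14*, all genes 22.9%). With a threshold of 3 it was 1 (*Lta*, all genes 5.52%), and with no minimum 3 of 10 (adding *Fasl*, all genes 10.5%). The count at least 2-fold higher was 0, where the share over all genes was 14.2%. It became 1 (*Cd40lg*) with library totals without *Rn45s* (all genes 15.955%), with scaling to *Gapdh* (24.3%) and with a threshold of 1.5 (23.506%). *Gapdh* itself had a log2 ratio of -0.42, and scaling to it moved the median of all genes from -0.01 to 0.43 and that of the members from -0.19 to 0.22. Over all genes the calls went from 1491 lower and 1720 higher to 780 and 2960 with that scaling, to 2441 and 3265 with no minimum, to 1067 and 734 with a log2 minimum of 6, to 1097 and 758 with a minimum of 4 in both libraries, to 2777 and 2847 at 1.5-fold and to 669 and 1008 at 3-fold. Across the 8 scalings and pseudocounts the log2 ratio of *Lta* ran from -3.14 to -2.71, that of *Tnf* from -1.22 to -0.79, that of *Ltb* from 0.28 to 0.71 and that of *Cd40lg* from 0.87 to 1.33. *Tnfsf10* was above 0 only with scaling to *Gapdh*, and *Cd70* was below 0 in 1 of the 8. With a 99% in place of a 95% interval, a ratio of 1 was excluded for 6 of the 9 members past the minimum, as before, and for 66.9% in place of 74.7% of all genes past it. For *Fasl*, below the minimum, only the 95% interval excluded 1. Members of fewer than about 30 reads (*Fasl*, *Tnfsf11* and *Cd70*) are limited by depth.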
